A study of Mus musculus with 28 samples.

Results

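The nuclear-encoded subunits of mitochondrial complex I were followed through cuprizone demyelination and remyelination of the mouse brain. They were taken as a list of 35 Nduf genes, matched by symbol to Ensembl gene identifiers. The rule uses gene names alone, but the list was proposed with earlier results of these data known. All 35 matched a single identifier among the 55414 genes of the deposited tables, and all 35 passed the filter on low counts, with at least 66 counts for any member in any library. Complex I, or NADH:ubiquinone oxidoreductase, takes electrons from NADH in the mitochondrial matrix, passes them along a chain of iron-sulfur clusters to ubiquinone, and uses the energy to pump protons across the inner membrane. It has a matrix arm, made of an NADH-oxidising N module and a quinone-reducing Q module, and a membrane arm with a proximal and a distal part, whose proton-pumping core is encoded by the mitochondrial genome. Neurons draw most of their ATP from this chain, and loss of the accessory subunit Ndufs4 causes a fatal encephalopathy in mice.

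Whole-brain RNA of 28 libraries had been read by QuantSeq, which sequences a tag near the 3′ end of each polyadenylated transcript. Cuprizone is a copper chelator that is toxic to oligodendrocytes, and myelin is regained after its withdrawal. The 4 groups of 7 were naive mice (coded CPZ0), mice at the peak of demyelination (CPZ5) and mice in remyelination (CPZ6+1), all with floxed TNFR1 alleles (TNFR1ff, on C57BL/6), and mice in remyelination (CPZ6+1) with the genotype mgTNFR1KO, that is Cx3cr1-CreER.Tnfr1ff given tamoxifen, called the knockout group below. The labels state neither a unit for the codes nor the age of the mice, and do not say whether the remyelination controls received tamoxifen. All 4 groups carried the floxed alleles. Cre driven by Cx3cr1 acts in microglia and in other Cx3cr1-expressing macrophages, while the RNA measured here came from all cells of the brain. Nothing states that the 7 samples of a group were separate animals, and p-values measure the spread between these samples, which may be technical.

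Library totals ranged from 1522919 to 3137252 counts, of which the 35 members took 0.392 to 0.643%. Naive library 1 and knockout library 1 stood apart: the most abundant gene, which had no symbol, took 25.54% of the counts in the former and 1.33% in the latter. Tnfrsf1a, the targeted gene, was at 16.5 to 30.4 CPM in the knockout libraries and at 15.6 to 28.8 CPM in the remyelination controls (CPM, the counts scaled to a common library size by the TMM method). Because the sequenced tags sit at the 3′ end, possibly beyond the excised exons, this is no check of the deletion. All 5 neuronal markers were measured, with log2 fold changes from −0.44 (Snap25) to +0.22 in remyelination against naive. Summed, which hides that spread, they had a median of 4535 CPM in naive, 4504 in demyelination, 4457 in remyelination and 4522 in knockout libraries. Of oligodendrocyte markers, Mbp had a mean of 3060 ± 318.9, 1592 ± 123.1, 3159 ± 335.9 and 3488 ± 530.8 CPM in the same order, and the 4 microglial markers summed to a median of 172.8, 279.3, 249.0 and 197.4 CPM. Of 4 skeletal muscle markers, looked at as a sign of tissue from outside the brain, Tnnt3 was at 0 in every library and the sum did not exceed 20.8 CPM. In bulk tissue, fewer cells of a type and less RNA per cell cannot be told apart.

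Every member was well expressed. Averaged over the 28 libraries, levels ran from 70.1 CPM for Ndufs4, an accessory subunit near the join of the N and Q modules, to 389.7 CPM for Ndufb5, a membrane subunit of the distal arm. The tag protocol gives no length-dependent number of reads per transcript, so these CPM need no scaling by gene length. Other differences between genes in how fully their tags are counted were not tested, so the ranking of genes is approximate. The highest level was 5.56 times the lowest. Levels differed by position in the complex only in part. The 5 Q module genes had a median of 80.7 CPM (range 75.7 to 158.9), the 10 N module genes 159.0 (70.1 to 228.4), the 9 genes of the proximal membrane arm 153.2 (109.8 to 254.9) and the 11 of the distal arm 166.5 (92.5 to 389.7). The coefficient of variation between libraries of a group had a median of 13.3% over members (8.89% for Ndufb2 to 24.1% for Ndufa5), where counting error alone had a median of 5.73%.

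RSEM had divided reads of 8 members with other annotated genes, seen as counts that were not whole numbers. This touched Ndufs3 and Ndufb4 in all 28 libraries, Ndufb6 in 27, Ndufa12 in 20, Ndufab1 in 18, Ndufs5 in 16, Ndufs1 in 10 and Ndufb2 in 1, and the values of these genes are less certain than the rest.

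**Figure D1:**
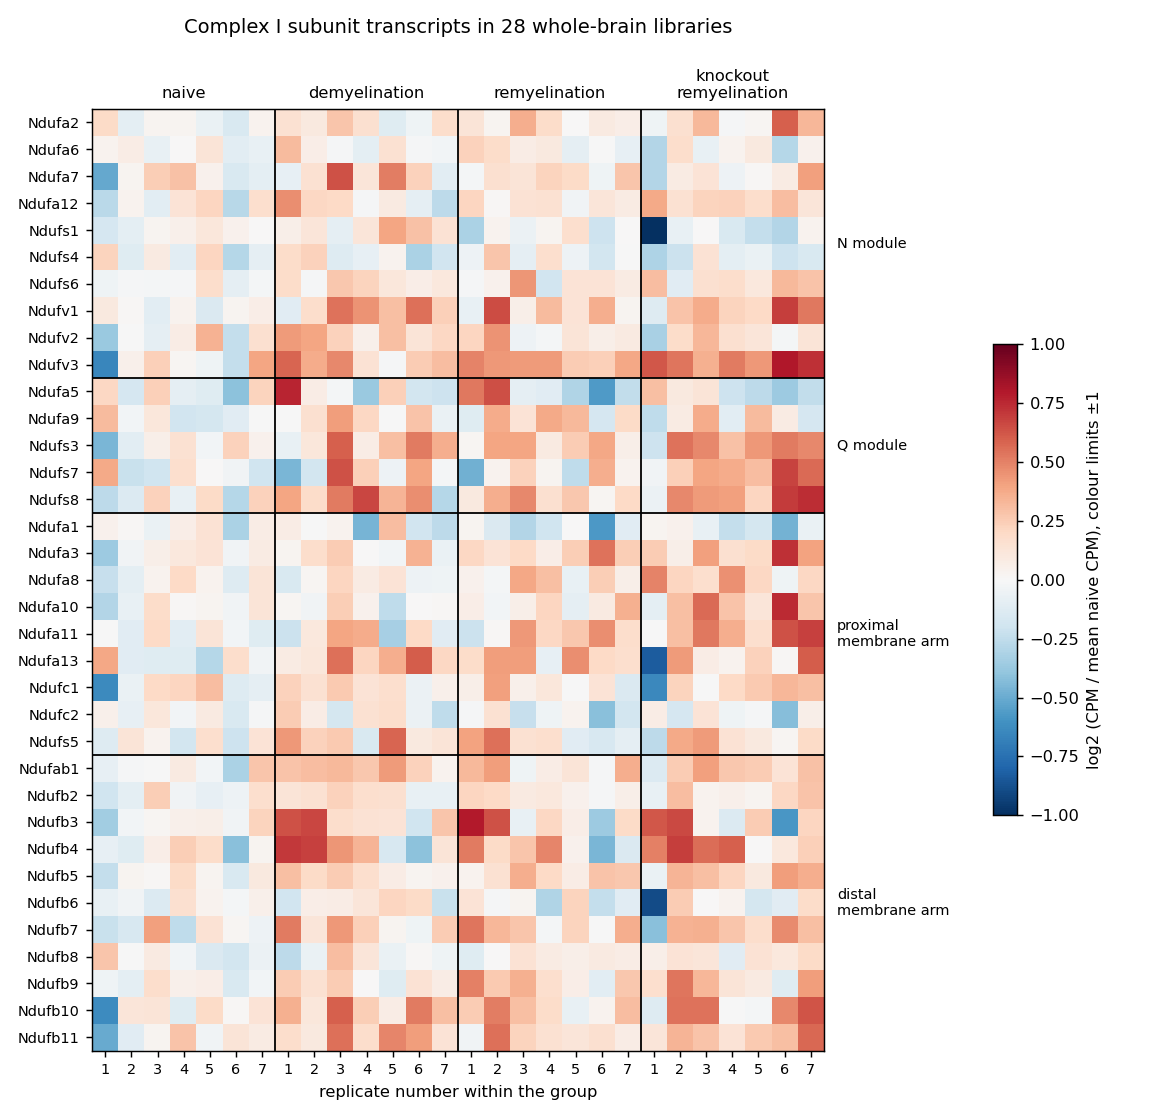
Level of each of the 35 subunit genes (rows, by position in the complex) in each of the 28 libraries (columns, by group and replicate), as log2 of its CPM over the mean naive CPM of the same gene, with colours limited to ±1. Red predominates in the demyelination, remyelination and knockout libraries, and knockout library 1 shows low values of Ndufs1, Ndufa13, Ndufb6 and Ndufc1.

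The summed level of the 35 subunit transcripts was lowest in naive brain. The naive libraries held 4745 to 5431 summed CPM (median 5351, mean 5160 ± 300.5 SD, n = 7) and the demyelination libraries 5319 to 6289 (median 5677, mean 5762 ± 312.8). The remyelination libraries held 5351 to 6161 (median 5623, mean 5695 ± 271) and the knockout libraries 5164 to 6409 (median 6080, mean 5921 ± 440.3). In each of the 3 cuprizone groups 6 of 7 libraries lay above the highest naive library, and 1 lay within the naive range. This count rests on the scaling: with library totals in place of TMM, 6 demyelination, 4 remyelination and 7 knockout libraries lay above the highest naive sum of 5516. The libraries that stood apart held the lowest sum of their groups, 4745 CPM in naive library 1 and 5164 CPM in knockout library 1. The transcripts of the 7 mitochondrially encoded subunits, summed, did not show this order: their means were 20790 ± 2007 CPM in naive, 20790 ± 3753 in demyelination, 21240 ± 3681 in remyelination and 19780 ± 5359 in knockout libraries, with all ranges overlapping. Knockout library 1 held their highest sum, 30740 CPM.

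**Figure D2:**
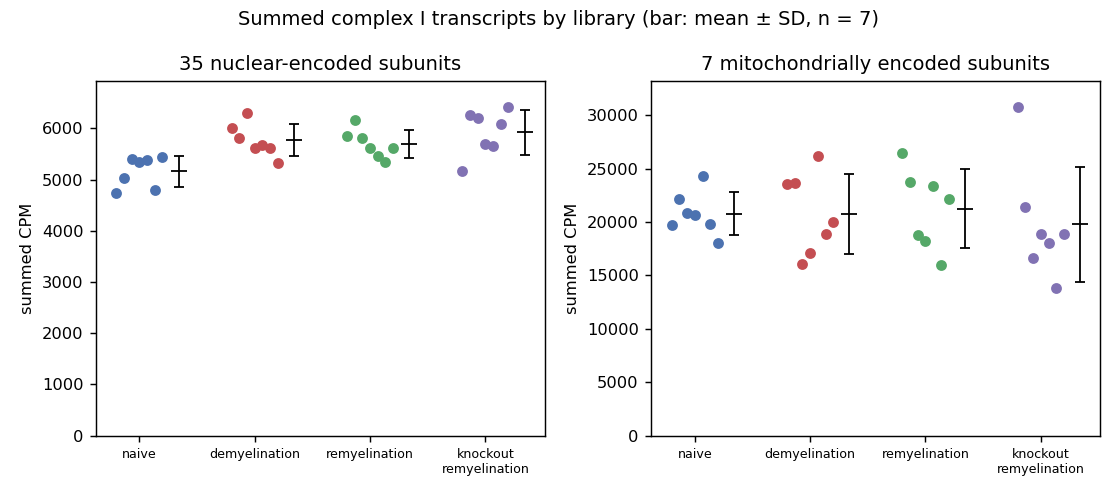
Summed CPM of the 35 nuclear-encoded subunit genes (left) and of the 7 mitochondrially encoded subunit genes (right) in every library, with the mean ± SD of 7 libraries beside each group. On the left 6 of 7 libraries of each cuprizone group lie above the highest naive value of 5431, while on the right the groups overlap throughout.

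At the peak of demyelination, compared with naive brain to ask what the loss of myelin changed, small positive differences ran through the complex but no subunit passed the test. The log2 fold change was above 0 for 33 of 35 members, with a median of +0.14 and a range of −0.05 (Ndufa1) to +0.34 (Ndufs8), beside 49.1% of all 12423 genes above 0 and a median of −0.01. Of the 35, 0 were called at an adjusted p of 0.05 with the edgeR quasi-likelihood test and 0 with DESeq2, beside 2.0% and 2.75% of all genes. At an unadjusted p of 0.05 there were 10 members, all with higher levels in demyelination, beside 13.3% of all genes. The 95% intervals of the 35 lay between −0.27 and +0.61 on the log2 scale, so a doubling or a halving lay outside the interval of every member. The oligodendrocyte markers Mbp, Mobp and Mag fell in the same comparison (log2 fold changes of −0.94, −1.29 and −1.13), 3 of 4 microglial markers rose, Gfap of the astrocyte markers rose (log2 fold change +1.82), 0 of 5 neuronal markers passed, and the part of cell composition in the subunit levels was not tested.

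In the N module, Ndufv1, which binds NADH and the flavin that accepts its electrons, had 121.7 to 144.0 CPM in naive libraries (median 137.3) and 124.3 to 197.1 in demyelination (median 165.9). Here 6 of 7 demyelination libraries exceeded every naive one, and library 1 did not. This made a log2 fold change of +0.32 (SE 0.114, adjusted p = 0.156). Ndufv2, its iron-sulfur partner, went from 113.7 to 187.0 CPM in naive libraries (median 146.9) and from 152.7 to 197.8 in demyelination (median 173.0), with a log2 fold change of +0.25 (SE 0.105, adjusted p = 0.261). Only 2 demyelination libraries were above the naive range. Ndufs1, the largest subunit and the carrier of further clusters, lay at 84.3 to 102.9 CPM in naive (median 97.0) and 89.3 to 124.9 in demyelination libraries (median 103.1), a log2 fold change of +0.15 (SE 0.113, adjusted p = 0.608). The accessory subunits Ndufa2, Ndufa6, Ndufa7, Ndufa12, Ndufs4 and Ndufs6 had log2 fold changes from −0.03 (Ndufs4) to +0.23 (Ndufa7). Ndufs4 itself, the member with the lowest level, had 58.7 to 83.5 CPM in naive and 57.6 to 83.8 in demyelination libraries, nearly the same range.

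In the Q module all 5 genes had positive values. Ndufs8, which holds a pair of clusters on the way to quinone, had 51.8 to 73.8 CPM in naive (median 60.0) and 51.8 to 99.99 in demyelination libraries (median 82.7), where 5 of 7 were above the naive range and library 7 was at its low end. Its log2 fold change of +0.34 (SE 0.13, adjusted p = 0.195) was the highest of the 35. Ndufs3, a core subunit needed early in assembly, had 98.6 to 158.6 CPM in naive (median 139.0) and 128.4 to 204.5 in demyelination libraries (median 166.4), with +0.29 (SE 0.115, adjusted p = 0.228). Ndufs7, which holds the last cluster before quinone, had 83.9 to 127.3 CPM (median 95.7) and 71.4 to 152.8 CPM (median 96.8), with +0.13 (SE 0.139, adjusted p = 0.757). The values of Ndufs7 were the more scattered, and those of demyelination enclosed those of naive brain. Ndufa5 and Ndufa9, accessory subunits of this module, had +0.09 and +0.16.

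In the membrane arm the distal part had the higher median, +0.23 with 11 of 11 genes above 0, against +0.08 with 8 of 9 in the proximal part, a contrast that was not tested. Ndufab1, the mitochondrial acyl carrier protein, had 152.1 to 229.0 CPM in naive (median 187.7) and 193.2 to 253.7 in demyelination libraries (median 230.2). Of the latter, 4 exceeded the naive range, with a log2 fold change of +0.27 (SE 0.0958, adjusted p = 0.156). Ndufb10 and Ndufb11, subunits of the distal arm, had +0.32 and +0.30 (adjusted p = 0.211 and 0.162). In the proximal arm Ndufa13, also known as GRIM-19, had a mean of 125.6 ± 20.5 CPM in naive and 156.5 ± 23.3 in demyelination libraries (log2 fold change +0.32, SE 0.135, adjusted p = 0.263; this gene is named because of its values). With the share of the most abundant gene as a covariate Ndufv1 and Ndufa13 passed (2 members), with the mitochondrial share Ndufv1 (1 member), and without naive library 1 and knockout library 1 Ndufa13 (1 member), in fits that called 3.25%, 3.41% and 2.24% of all genes. The count above 0 was 33 of 35 in those 3 fits as well.

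**Figure D3:**
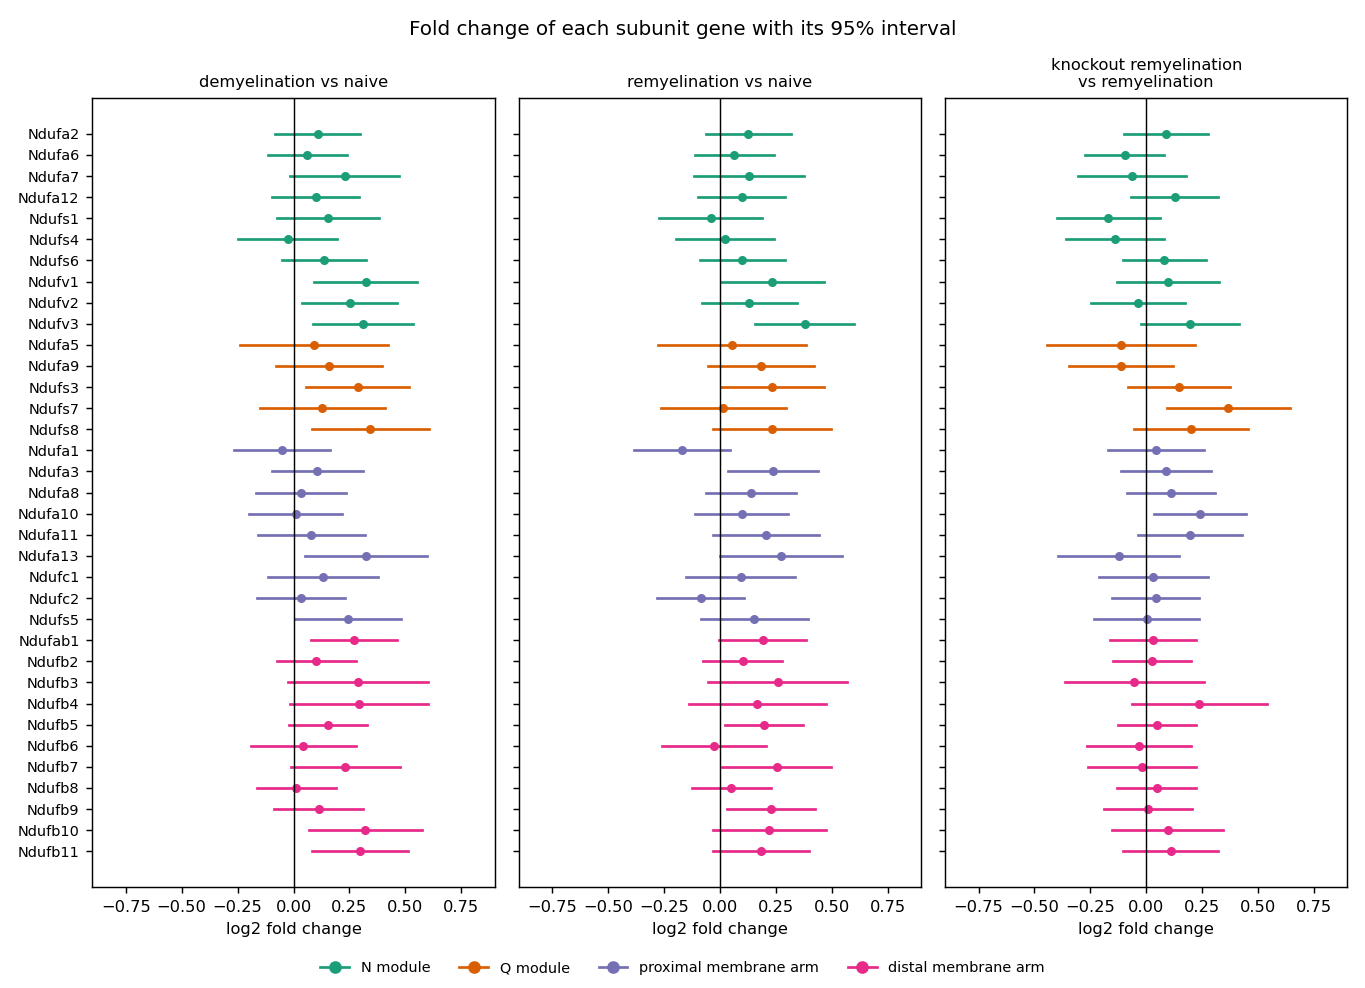
Log2 fold change (points) and 95% interval (lines) of each subunit gene in 3 comparisons, coloured by position in the complex, with a vertical line at 0. Against naive brain the points lie mostly to the right of 0 in demyelination (33 of 35) and remyelination (31 of 35), and in the knockout comparison they lie on both sides (24 of 35 to the right).

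Ndufv3, a small accessory subunit of the N module, was the 1 member called in the test for any difference among the 4 groups. Its naive libraries lay between 102.6 and 211.8 CPM (median 163.5) and those of demyelination between 159.7 and 240.5 (median 199.5). Remyelination libraries held 190.1 to 227.0 CPM (median 216.0) and knockout libraries 206.1 to 280.5 (median 232.7). Every group overlapped the next, and 2, 4 and 6 of 7 libraries of the demyelination, remyelination and knockout groups lay above the highest naive library. In this test it had an adjusted p of 0.00761 (edgeR, F = 9.27), and over 35 alternative settings the adjusted p ran from 0.000573 to 0.0334. No other member passed this test, so the count was 1 of 35 with both edgeR and DESeq2, beside 2.46% and 4.05% of all genes; 13 members had an unadjusted p under 0.05, beside 15.9%. In the comparisons of pairs of groups that had been planned, Ndufv3 did not pass: it had a log2 fold change of +0.31 in demyelination (SE 0.11, adjusted p = 0.158) and +0.38 in remyelination (SE 0.11, adjusted p = 0.106), both against naive, and +0.19 in the knockout against its control (SE 0.108, adjusted p = 0.686). Without knockout library 1 the test over the 4 groups called 4 members, Ndufv3, Ndufa10, Ndufs3 and Ndufa11, and with the share of the most abundant gene as a covariate also 4, with Ndufs7 and Ndufv1 in place of Ndufa10 and Ndufs3. In these fits 3.81% and 4.44% of all genes were called. The oligodendrocyte markers Mbp, Mobp and Mag, microglial (3 of 4) and red blood cell markers (3 of 3), Gfap and Ttr, a choroid plexus marker, also passed the test over the 4 groups. The red blood cell markers summed to medians of 265.8, 266.3, 448.9 and 512.7 CPM and those of choroid plexus to 669.8, 876.6, 680.7 and 1036 CPM, in the order of groups above, and the part of these cells in the result was not tested.

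**Figure D4:**
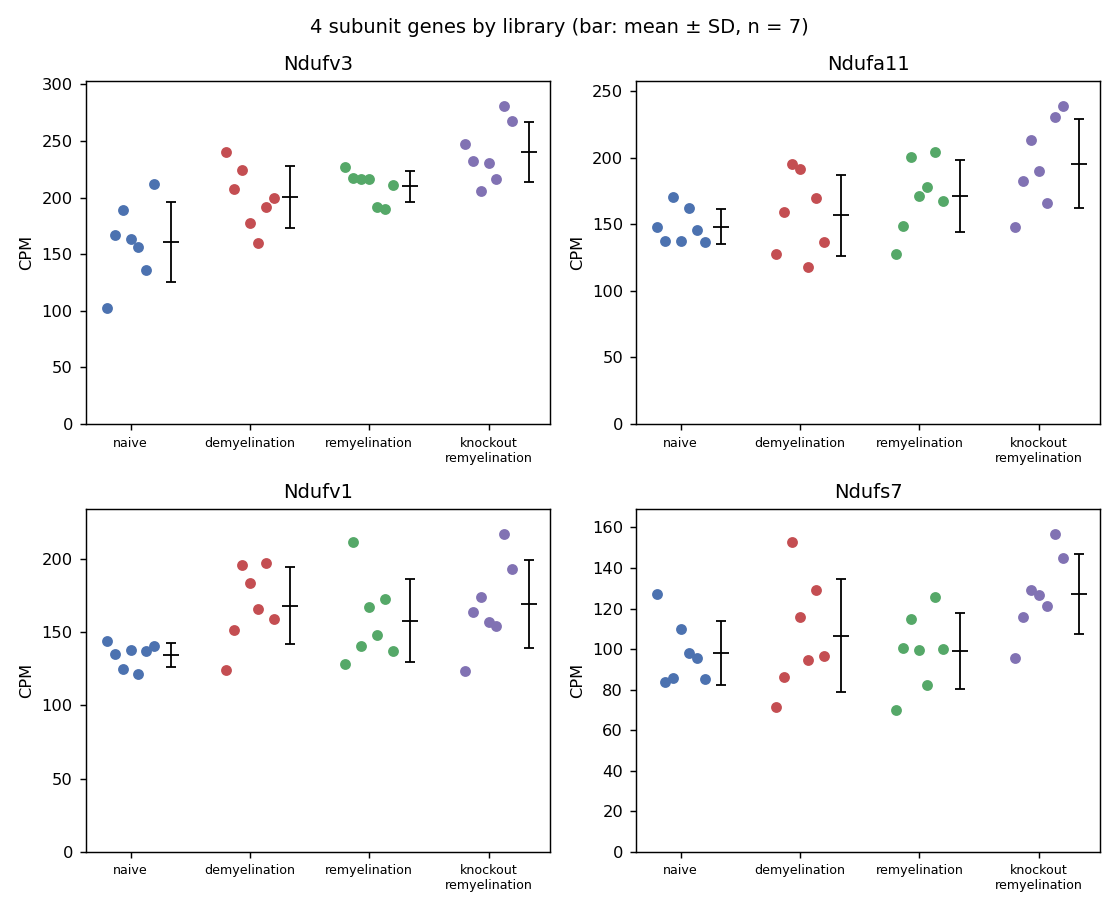
CPM of Ndufv3, Ndufa11, Ndufv1 and Ndufs7 in every library, with the mean ± SD of the 7 libraries beside each group. The Ndufv3 mean goes from 160.9 in naive to 240.3 in knockout libraries, and in all 4 genes the groups overlap.

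The promoter of Ndufv3 is shown beside those of Ndufs5 and Ndufb4, the members whose promoters held matches to motifs of both NRF1 and the estrogen-related receptors (ERR), which are known regulators of respiratory chain genes. The sequences are the 250 bases before the start of the gene, from RefSeq on build GRCm38.p6 (the deposited counts are on another build, GRCm39), 5′ to 3′ on the strand of the gene, with matches in capitals.
Ndufv3: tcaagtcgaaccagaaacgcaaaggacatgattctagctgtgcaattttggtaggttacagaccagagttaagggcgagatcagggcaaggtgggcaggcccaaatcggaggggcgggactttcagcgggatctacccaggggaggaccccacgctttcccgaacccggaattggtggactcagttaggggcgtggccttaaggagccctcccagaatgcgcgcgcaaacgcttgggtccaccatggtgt
Ndufs5: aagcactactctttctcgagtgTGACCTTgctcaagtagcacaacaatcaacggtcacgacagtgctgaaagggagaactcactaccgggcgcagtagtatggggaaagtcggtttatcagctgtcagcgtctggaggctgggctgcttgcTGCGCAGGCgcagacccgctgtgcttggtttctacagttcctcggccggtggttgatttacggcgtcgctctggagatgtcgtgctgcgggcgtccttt
Ndufb4: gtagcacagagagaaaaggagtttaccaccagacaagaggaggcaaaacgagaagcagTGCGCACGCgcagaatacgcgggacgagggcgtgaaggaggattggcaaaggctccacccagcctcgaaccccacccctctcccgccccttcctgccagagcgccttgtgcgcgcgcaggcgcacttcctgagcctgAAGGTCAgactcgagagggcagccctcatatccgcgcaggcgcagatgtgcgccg
They lie at chr17:31519865-31520114 on the plus strand, chr4:123718187-123718436 on the minus strand and chr16:37654369-37654618 on the minus strand. In Ndufs5 the capitals mark an NRF1 match starting 99 bases before the start of the gene and an ERR match 228 bases before it, and in Ndufb4 an NRF1 match at 192 and an ERR match at 55 bases before it. The Ndufv3 window held no match of the 4 motifs searched, which says only that these letters are not in this window.

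The motifs were searched on both strands in windows of 300 bases (250 before and 50 after the start), for the 32 members with a promoter in the table. NRF1 (TGCGCANGC) was found in 6 members (18.8%; Ndufa5, Ndufa6, Ndufa8, Ndufb4, Ndufb10, Ndufs5), beside 4.16% of all 32851 promoters. The ETS core bound by GABPA (CCGGAAG) was found in 4 members (12.5%), beside 8.86%. The ERR motif (AAGGTCA) was found in 3 members (9.38%), beside 4.72%. YY1 (AAGATGGCG) was found in 5 members (15.6%; Ndufa9, Ndufc1, Ndufs4, Ndufs6, Ndufs7), beside 1.40%, and in 0 of them wholly before the start. The motifs as searched do not contain each other. A match describes letters only, not a binding site.

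In remyelination, compared with naive brain to ask what remained after withdrawal of cuprizone, most members again had small positive differences. The log2 fold change was above 0 for 31 of 35 members with a median of +0.14 (all genes: 50.4% above 0, median +0.00), in a range of −0.17 (Ndufa1) to +0.38 (Ndufv3). No member passed with edgeR or DESeq2, beside 0.628% and 1.46% of all genes, and 7 had an unadjusted p under 0.05, beside 10.4%. The 95% intervals lay between −0.38 and +0.60. Besides Ndufv3 the smallest p belonged to Ndufa3, a short membrane subunit of the proximal arm, which had 121.7 to 172.4 CPM in naive (median 163.0) and 164.3 to 227.8 in remyelination libraries (median 181.3). Of these, 6 of 7 remyelination libraries were at or above the highest naive library, with a log2 fold change of +0.24 (SE 0.0996, adjusted p = 0.353). Ndufb5, the most abundant member, lay between 297.5 and 400.1 CPM in naive and between 358.4 and 450.2 in remyelination libraries, with demyelination (357.8 to 432.6) and knockout libraries (335.2 to 468.0) in much the same range. In remyelination against naive its log2 fold change was +0.20 (SE 0.086, adjusted p = 0.369). Without naive library 7, which had the highest Ndufv3 level of its group at 211.8 CPM, Ndufv3 passed in this comparison (log2 fold change +0.45, adjusted p = 0.0415). Among the neuronal markers Snap25 was lower here (log2 fold change −0.44, SE 0.129, edgeR adjusted p = 0.107), while 3 of 5 were above 0. Gfap, Hbb-bs and 2 of 4 microglial markers passed upward with edgeR. The part of these cells in the subunit levels was not tested. The comparisons against naive brain share the naive libraries, so they are not independent of each other.

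Remyelination and demyelination, compared directly to ask what changed during recovery, differed little. The log2 fold change was above 0 for 14 and below 0 for 21 of 35 members, with a median of −0.04 and a range of −0.20 to +0.13, beside 50.2% of all genes above 0. No member passed with edgeR or DESeq2, and 0 had an unadjusted p under 0.05, beside 0.386%, 0.588% and 6.65% of all genes. The 95% intervals lay between −0.43 and +0.36. Ndufs1 had the smallest p, with 89.3 to 124.9 CPM in demyelination (median 103.1) and 76.4 to 106.9 in remyelination libraries (median 95.03), a log2 fold change of −0.20 (SE 0.113, adjusted p = 0.818). The 6 catalytic core members on the list (Ndufv1, Ndufv2, Ndufs1, Ndufs3, Ndufs7, Ndufs8) lay slightly below 0, at −0.05 to −0.20, and none passed. Over the same interval the oligodendrocyte markers Mbp, Mobp and Mag rose, with log2 fold changes of +0.99, +1.02 and +1.15.

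The knockout group, compared with its remyelination controls to ask what microglial TNFR1 deletion changed, showed no subunit that passed. Cre and tamoxifen are stated for the knockout genotype alone, so their parts and that of the deletion cannot be told apart. The log2 fold change was above 0 for 24 of 35 members, with a median of +0.04 (all genes: 6207 of 12423 above 0) and a range of −0.17 (Ndufs1) to +0.37 (Ndufs7). Calls numbered 0 with edgeR and 0 with DESeq2, beside 0.0483% and 0.105% of all genes, and 2 members had an unadjusted p under 0.05, beside 7.49%. The 95% intervals lay between −0.44 and +0.64. The 2 members were Ndufs7 and Ndufa10. Ndufs7 had 70.1 to 125.8 CPM in the controls (median 100.2) and 95.4 to 156.7 in knockout libraries (median 126.8). Of the latter, 4 of 7 exceeded every control, with a log2 fold change of +0.37 (SE 0.136, adjusted p = 0.559). Ndufa10, a membrane-arm subunit related to nucleoside kinases, had 220.4 to 299.5 CPM in the controls (median 245.5) and 219.8 to 393.8 in knockout libraries (median 286.5), with +0.24 (SE 0.102, adjusted p = 0.623). Only 2 knockout libraries were above the control range, and library 1 was below it.

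Ndufs1 was the member with the lowest fold change in the knockout comparison, −0.17 (SE 0.114, adjusted p = 0.751). It had 76.4 to 106.9 CPM in the controls and 46.5 to 97.5 in knockout libraries, of which library 1 held the 46.5. Leaving out naive library 1 and knockout library 1, 27 of 35 members were above 0, with a median of +0.06, and still none passed. In this comparison the microglial marker Cx3cr1, the gene whose promoter drives the Cre, fell by 0.89 on the log2 scale (adjusted p = 0.0365), and the other markers did not pass with edgeR. Besides 2 further microglial markers and 1 astrocyte marker, an unadjusted p under 0.05 was found for Ttr (+0.64, adjusted p = 0.114, called with DESeq2), the cerebellar marker Cbln1 (+0.37, adjusted p = 0.535), Hba-a1 (+0.55, adjusted p = 0.57) and Hbb-bt (+0.48, adjusted p = 0.614), and their part in the subunit levels was not tested.

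The knockout group was also compared with naive brain, a comparison added after the test over the 4 groups had been seen. These groups differed in cuprizone and in genotype, possibly also in tamoxifen, and there was no naive knockout group. The parts of treatment and genotype in any difference cannot be told apart. Here 2 of 35 members passed with edgeR and 7 with DESeq2, all upward, beside 3.24% and 4.91% of all genes, and 17 had an unadjusted p under 0.05, beside 18.9%. That DESeq2 count added Ndufs3, Ndufs8, Ndufa10, Ndufa3 and Ndufb5. The median over members was +0.22, with 28 of 35 above 0, beside +0.00 and 50.6% for all genes. Ndufv3 rose, with a log2 difference of 0.57 (SE 0.11, adjusted p = 0.00169), and it passed in all 36 alternative settings, with adjusted p from 7.82e-05 to 0.00807. Ndufa11, a membrane subunit of the proximal arm, lay between 136.5 and 170.2 CPM in naive (median 145.7) and between 148.0 and 238.6 in knockout libraries (median 190.1). The demyelination libraries held 117.7 to 195.1 CPM (median 159.2) and those of remyelination 128.0 to 204.0 (median 171.2). It rose by 0.40 between naive and knockout libraries (SE 0.117, adjusted p = 0.0484), with 5 of 7 knockout libraries above the naive range.

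The call of Ndufa11 was close to the threshold. It was lost when any of 17 of the 28 libraries was left out in turn (naive 1, 2, 4, 5, 6 or 7, demyelination 2, 6 or 7, remyelination 4, 5 or 7, knockout 2, 3, 4, 6 or 7), with adjusted p from 0.0507 to 0.134 and log2 fold changes of 0.35 to 0.43. Knockout library 1 moved the count most: without it 9 members passed, Ndufv3, Ndufs3, Ndufa10, Ndufa11, Ndufs8, Ndufv1, Ndufb5, Ndufa3 and Ndufs7, and without both libraries that stood apart 7 did. Without remyelination library 1 or knockout library 5 the count was 4. The share of all genes called, 3.24% with all libraries, was 5.91%, 5.18%, 3.70% and 2.90% in these 4 fits, so more of all genes also passed in the fits with 9 and 7 members. Ndufs8 and Ndufs3 were just outside the threshold with all 28 libraries (log2 fold change +0.43 and +0.38, adjusted p = 0.0513 and 0.0535). Ndufs3 lay between 98.6 and 158.6 CPM in naive and between 117.2 and 197.3 in knockout libraries, 6 of 7 of the latter being above every naive library, and at 137.2 to 177.8 in remyelination. The Ndufs8 levels were 63.7 to 88.1 CPM in remyelination (median 72.3) and 60.4 to 104.8 in knockout libraries (median 84.5). Of the other core subunits, Ndufv2 had 117.8 to 185.8 CPM in knockout libraries (+0.10, SE 0.105) and Ndufs1 had −0.21 (SE 0.114, adjusted p = 0.315). Red blood cell markers rose in this comparison (3 of 3, median log2 fold change +1.19), as did Ttr (+0.56) and Gfap (+1.59), and their part was not tested.

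The other genes of the respiratory chain were read as lists by complex. In the 4 planned comparisons 0 genes of any of them passed with edgeR. At the peak of demyelination the medians were +0.17 for the 4 genes of complex II, +0.08 for 9 of complex III, +0.11 for 11 of complex IV and +0.15 for 14 of complex V, against +0.14 for the 35 members of complex I. Of these, 3, 9, 9 and 11 genes were above 0. The smallest p in each belonged to Sdha (+0.16, adjusted p = 0.337), Uqcrfs1 (+0.25, adjusted p = 0.317), Cox4i1 (+0.21, adjusted p = 0.41) and Atp5a1 (+0.22, adjusted p = 0.217). Transcripts made in the mitochondrion had medians of +0.01 for the 7 complex I genes (4 above 0) and −0.05 for the 6 others (2 above 0), a contrast with the nuclear-encoded lists that was not tested. Assembly factors of complex I, which build the enzyme without staying in it, were measured for 15 of 16, with a median of +0.10 and 11 above 0. Among them Ndufaf5, which modifies a core subunit during assembly, had the smallest p (+0.55, SE 0.231, adjusted p = 0.261). The 7 regulators of mitochondrial biogenesis (Ppargc1a, Ppargc1b, Nrf1, Gabpa, Esrra, Tfam and Yy1) had a median of −0.07 with 0 above 0, and Tfam had the smallest p (−0.24, adjusted p = 0.608).

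In the knockout group against its controls the mitochondrially encoded complex I genes had a median of −0.11 with 0 of 7 above 0, from −0.20 (mt-Nd2, adjusted p = 0.766) to −0.02, opposite in sign to the nuclear-encoded median of +0.04. Complex III had +0.14, complex IV +0.12 and complex V +0.07, with Uqcrq, a small complex III subunit, at +0.37 (SE 0.102, adjusted p = 0.399). In the added comparison of knockout with naive brain Cox5b and Cox6b1, subunits of complex IV, rose by 0.32 and 0.34 on the log2 scale (adjusted p = 0.0139 and 0.049), the only genes of the other lists of the chain called with edgeR, where DESeq2 called 5 genes of complex IV and 1 of the regulators. The mitochondrially encoded genes had 0 calls there, and mt-Nd2 was at −0.34 (adjusted p = 0.16). Per library, the summed nuclear-encoded level over the summed mitochondrially encoded level lay between 0.221 and 0.301 in naive and between 0.168 and 0.439 in knockout libraries, with 0.217 to 0.390 at demyelination and 0.221 to 0.335 at remyelination. Knockout library 1 held the 0.168 and had the highest share of mitochondrial transcripts of all libraries, 9.14% of its counts.

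**Figure D5:**
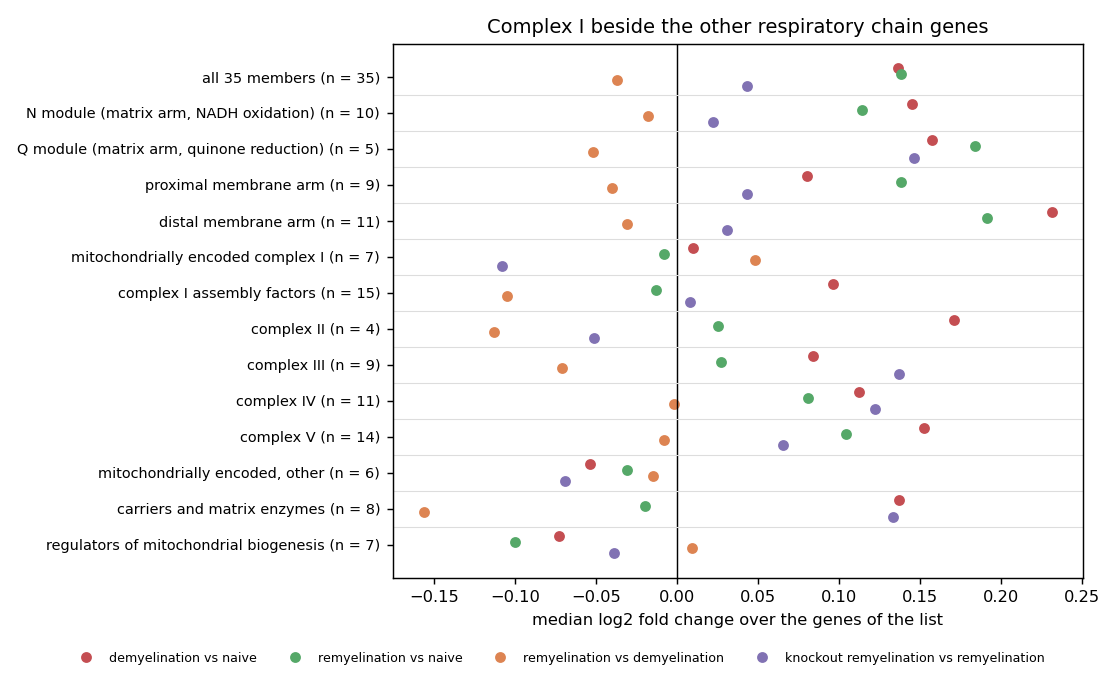
Median log2 fold change over the genes of each list (rows, with the number of genes measured) in 4 comparisons (colours), with a vertical line at 0. The 4 modules and complexes II to V lie to the right of 0 in demyelination against naive, at +0.08 to +0.23, while mitochondrially encoded genes lie near 0 and the biogenesis regulators at −0.07.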

How the data were processed

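Whole-brain polyA RNA was measured by 3′ tag sequencing in 28 mouse libraries, 7 in each of 4 groups taken from the sample titles. The authors deposited RSEM expected counts per gene, which are not normalised, per the file headers. Per the submitters' processing notes, STAR and RSEM were used on build GRCm39, with FastQC, cutadapt and edgeR. Their versions and the annotation were not given in the sources used here. In each library between 96.59 and 97.69% of the 55414 genes had an expected count that was whole within 0.005, and all counts were rounded. This share includes genes at 0, as only 15862 to 18796 genes were detected per library, so it is lower among detected genes. Symbols came from GENCODE M21 (GRCm38) by identifier, for 52081 of 55414 genes. Ndufb1 was not matched, and Atp5o matched 2 identifiers and was left out.

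Counts were scaled by TMM and filtered with filterByExpr, leaving 12423 genes. One edgeR 4.0.16 quasi-likelihood fit (R 4.3.3) of all 28 libraries with 4 group means gave every contrast and the test over the 4 groups, with Benjamini-Hochberg adjustment over all genes tested and calls under 0.05. The common biological coefficient of variation was 19.5%. Tested on simulated counts for 12423 genes in demyelination against naive, it called 73 of 100 genes changed by 1 on the log2 scale and 21 of 100 changed by 0.5, with 9 false calls. The changed genes were drawn at random from all genes tested, whatever their level. These counts therefore do not give the sensitivity for the members. DESeq2 1.42.0 and the other settings are alternatives. Per-library values are given for members called, for the 2 smallest p of each planned comparison, for the highest and lowest level, and for the catalytic core, and lists are described by counts and medians. The members and lists were chosen with earlier results of these data known, although the rule for members uses gene names only. Totals of 1522919 to 3137252 counts limit the precision of a member's level to a median counting error of 5.73%, and intervals cover the spread between libraries.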

Additional observations from a re-analysis of the deposited data

Results flagged for a closer look

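Of 56 groups of 7 libraries examined (13 named members and the summed level), 4 held a library whose gap to its neighbour exceeded Dixon's critical value for 7 values as a share of the range of the group. Chance flags about 1 in 20 groups. Ndufa3 was at 121.7 CPM in naive library 1, where the other naive libraries held 152.6 to 172.4, and at 227.8 CPM in remyelination library 6, where the others held 164.3 to 186.1. Ndufs1 was at 46.5 CPM in knockout library 1 (others 77.5 to 97.5) and Ndufs3 at 117.2 CPM in the same library (others 165.4 to 197.3). Naive library 1 and knockout library 1 also held the highest and lowest shares of the most abundant gene, 25.54 and 1.33%.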

How the results depend on the processing

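The number of members called against the naive group moved with the setting. In demyelination it was 0 with all libraries, 2 with the share of the most abundant gene as a covariate, 1 with the mitochondrial share and 1 without naive library 1 and knockout library 1. In remyelination it was 0, and 0 to 1 when each library was left out in turn. The test over the 4 groups called 1 member, 4 with the share of the most abundant gene, 2 without both libraries that stood apart, and 1 to 4 with each library left out. The added comparison of knockout with naive called 2, 7 with DESeq2, 8 with the share of the most abundant gene, 1 with the mitochondrial share, 7 without both libraries and 1 to 9 with each library left out. The share of all genes called in it moved as well, from 3.24% to 6.05% with the share of the most abundant gene and 2.37% with the mitochondrial share. In remyelination against demyelination and in knockout against remyelination 0 members were called in all 36 alternatives.

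The median of the members kept its sign in every alternative: 0.11 to 0.18 in demyelination and 0.10 to 0.16 in remyelination against naive, −0.08 to −0.01 in remyelination against demyelination, and 0.03 to 0.07 in the knockout comparison. With library totals in place of TMM, 9 of 35 members were above 0 in remyelination against demyelination, where TMM gave 14. The summed level without Ndufb5, the most abundant member, was 4810 CPM in naive, 5372 in demyelination, 5293 in remyelination and 5505 in knockout libraries. Depth limits each member's level to a median counting error of 5.73%, against a median spread within groups of 13.3%.

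With the replicate number as a block (a replicate block), the test over the 4 groups called 2 members and the added comparison 7, and the planned pairwise counts stayed at 0. The labels do not say that a number marks a shared animal, litter or day. Of 42 same-numbered pairs of libraries 5 had deviations correlated above 0.1 (median 0.035, range −0.131 to 0.302), and the best match of a library in another group had the same number in 22 of 84 cases, where 12 would fall on it if matches were even over the numbers. This is a hint of something shared by some libraries of a number: Ndufb3, for example, was at 386.4, 430.6 and 382.9 CPM in library 1 of the demyelination, remyelination and knockout groups and at 215.8, 192.9 and 165.7 CPM in library 6. In the naive group Ndufb3 went the other way, at 194.9 CPM in library 1 and 242.3 CPM in library 6. As most pairs were below 0.1, the numbers were not taken as pairs. With the block 4.89% of all genes were called in the added comparison and 3.79% over the 4 groups.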
